A study of Xenopus laevis with 7 samples.

Results

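The genes described here are the Nodal-related ligands of the African clawed frog Xenopus laevis and the gdf1 and gdf3 ligands of the same growth factor superfamily. They were chosen by name from the authors' table of all transcripts: those whose best human match is NODAL or whose identifier starts with nodal, and those named gdf1 or gdf3. This gave 22 of 44421 transcripts, namely 3 copies described as Xnr3, 17 other Nodal copies, of which 9 are described as Xnr5, and 2 gdf transcripts. The gdf transcripts, gdf1.1 and gdf3.1, carry a numbered suffix in place of the L or S that marks the long or short subgenome of this allotetraploid frog, and were taken up by dropping it.

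Messenger RNA had been sequenced from wild-type early gastrulae (strain or background Nasco, stage 10.5): 3 samples of dorsal lips, 3 of ventral lips and 1 of whole embryos. The dorsal lip holds the Spemann organizer, and the ventral lip is its counterpart on the opposite side of the blastopore. Sample numbers mark 3 experiments, and the whole embryo library belongs to experiment 1. The labels give neither the number of embryos in a sample nor separate clutches, so p-values measure the spread between these samples only, which may be technical.

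Nodal ligands are secreted proteins of the TGF-beta superfamily that bind activin receptors with an EGF-CFC co-receptor and act through Smad2, Smad3 and FoxH1. In the frog they induce endoderm and mesoderm from the late blastula on, and the feedback inhibitors Lefty and Cerberus limit them. Xnr3 is an atypical member: it is a direct target of maternal Wnt signalling on the dorsal side and lacks the mesoderm-inducing activity of the others. Vg1, the product of gdf1, is a maternal ligand stored at the vegetal pole that works together with Nodal, and the gdf3 product, called Derrière in the frog, acts in posterior mesoderm.

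The names in the files need a caution. The transcripts nodal.L and nodal.S are described as Xnr2 in the authors' deposited table of all transcripts and as Xnr1 in their deposited ventral table, while the NCBI RefSeq gene table (assembly v10.1) lists nodal4 and xnr4 among the synonyms of nodal.L. They are therefore called nodal.L and nodal.S here. The symbols of 7 of the 22 members were found in that gene table. Both gdf transcripts are described as growth/differentiation factor 3 precursor. RefSeq gives vg1 as a synonym of gdf1 and derriere as a synonym of gdf3, so the only transcript here that carries the name of the Vg1 gene is gdf1.1.

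The libraries held 26438016 to 37998992 reads as recovered from the values, so that 1 read over 1 kb was worth 0.0257 to 0.0369 RPKM (reads scaled by transcript length and by depth). Markers of the organizer summed to between 1450 and 1874 RPKM in dorsal lips, 17.5 and 74.9 RPKM in ventral lips and 736 RPKM in the whole embryo. Markers of the ventral center summed to between 81.7 and 189 RPKM in dorsal lips, 757 and 1427 RPKM in ventral lips and 654 RPKM in the whole embryo. None of the 16 transcripts in either list was at 0 in all 7 libraries, and both lists were higher on the labelled side. The lips of experiment 1 stood apart from those of experiments 2 and 3: 12085 of 16514 transcripts, or 73.2%, differed between them (limma, adjusted p under 0.05), with 4344 (26.3%) higher and 7741 (46.9%) lower in experiment 1. After quantile normalization the split was 5746 higher and 5968 lower. Most of the dorsal against ventral results below are therefore also given with the experiment number as a block or for experiments 2 and 3 alone. In bulk samples such as these, fewer cells of a type and less RNA per cell cannot be told apart.

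All 3 Xnr3 copies were abundant in dorsal lips and close to 0 in ventral lips. Xelaev18018866m stood at 93.4, 98.7 and 83.4 RPKM in dorsal lips, against 0.217, 0.122 and 0.176 RPKM in ventral lips. Xelaev18018867m stood at 82.0, 117 and 97.7 RPKM in dorsal lips, against 0.206, 0.105 and 0.0486 RPKM in ventral lips. Xelaev18018868m, the lowest of the copies in dorsal lips, stood there at 33.2, 52.4 and 51.5 RPKM, against 0.107, 0.0723 and 0.0558 RPKM in ventral lips. Every dorsal value lay far above every ventral value, and the ventral values rest on 2 to 11 reads per copy and library.

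Dorsal minus ventral differences on the log2(RPKM + 0.5) scale, which understates the change of values near 0, were 7.1 (SE 0.137) for Xelaev18018866m, 7.32 (SE 0.188) for Xelaev18018867m and 6.29 (SE 0.219) for Xelaev18018868m. The limma adjusted p over the 16514 transcripts averaging 1 RPKM or more across the lips was 2.57e-05, 0.000104 and 0.000352 in the same order. In this comparison 0.327% of transcripts passed the threshold of 0.05, and 0.248% passed as higher and 0.0787% as lower in dorsal lips. The Xnr3 copies passed the filter on low values through their dorsal levels, since no ventral value reached 1 RPKM. Their calls held with the experiment number as a block, where 4.71% of transcripts passed, 2.37% as higher and 2.34% as lower in dorsal lips.

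Counted in reads, the dorsal excess of Xnr3 can be bounded. The 3 copies together held 9303, 11192 and 9645 reads in dorsal lips, against 24, 12 and 9 reads in ventral lips. Scaled by mapped reads, the dorsal over ventral ratio was 390.4 in experiment 1 (exact 95% counting interval 262 to 609.6), 915 in experiment 2 (523 to 1771) and 914 in experiment 3 (481 to 1999.8). The ratio of experiment 1 was the lowest. Its interval overlaps both others, but overlap of intervals is no test of a difference, and these ratios were not tested against each other. These intervals cover counting error only, and how reads that fit more than 1 copy were placed is not known. No sequences were compared here, so differences between the copies are uncertain. Xelaev18018866m exceeded Xelaev18018868m by 1.62 to 3.56 times over the 7 libraries.

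**Figure D1:**
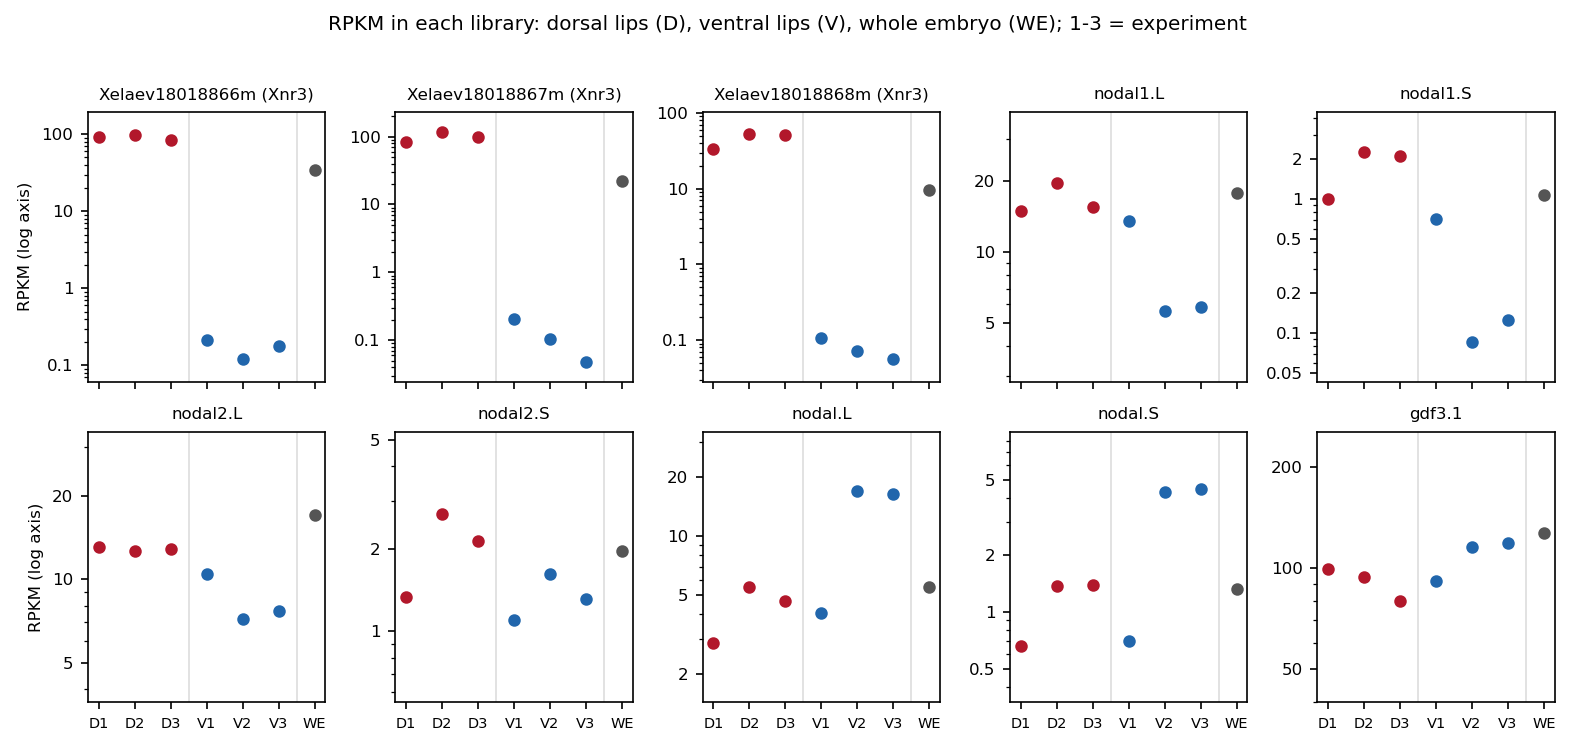
RPKM (log axes, each panel with its own range) of the 10 members averaging 1 RPKM or more across the lips, in dorsal lips (red, D), ventral lips (blue, V) and whole embryo (grey, rightmost); each point is 1 library and the number is the experiment. The Xnr3 copies lie between 33.2 and 117 RPKM in all dorsal lips and at or below 0.217 RPKM in all ventral lips, while nodal.L is highest in the ventral lips of experiments 2 and 3.

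The other Nodal copies did not share this split. Of them 6 passed the filter, and none of the 6 passed the test between dorsal and ventral lips over all 6 libraries. Only 0.327% of all transcripts passed this test, so the lack of calls does not set these copies apart from other transcripts. nodal1.L, which encodes the mesendoderm inducer Xnr1, stood at 14.8, 19.6 and 15.5 RPKM in dorsal lips, against 13.5, 5.64 and 5.84 RPKM in ventral lips. Every dorsal value lay above every ventral one, by 1.1 times in experiment 1 and by 3.47 and 2.65 times in experiments 2 and 3. The difference was 1.06 on the log2 scale (SE 0.350, limma adjusted p = 1.00; 0.108 with the block). Its homeolog nodal1.S was much lower, at 1.00, 2.25 and 2.1 RPKM in dorsal lips, against 0.708, 0.0859 and 0.124 RPKM in ventral lips. This difference was 1.53 (SE 0.390, limma adjusted p = 0.588; 0.0904 with the block), and the ventral values of experiments 2 and 3 rest on 4 and 5 reads.

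nodal2.L, which encodes Xnr2, another mesendoderm inducer, varied least. It stood at 13.05, 12.7 and 12.9 RPKM in dorsal lips, against 10.4, 7.17 and 7.70 RPKM in ventral lips. The groups did not overlap, and the difference of 0.60 (SE 0.166) had a limma adjusted p of 0.740 without the block and of 0.0461 with it, so that this call was gained with the block. nodal2.S stood at 1.34, 2.67 and 2.13 RPKM in dorsal lips, against 1.1, 1.62 and 1.31 RPKM in ventral lips, and the groups overlapped (0.44, SE 0.259, limma adjusted p = 1.00; 0.0873 with the block). Over all tested transcripts, 6.9% had dorsal and ventral values that did not overlap, and 3.09% had every dorsal above every ventral value.

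nodal.L and nodal.S leaned the other way. nodal.L stood at 2.86, 5.51 and 4.68 RPKM in dorsal lips, against 4.08, 16.9 and 16.4 RPKM in ventral lips. nodal.S stood at 0.663, 1.37 and 1.38 RPKM in dorsal lips, against 0.705, 4.33 and 4.49 RPKM in ventral lips. For both, the ventral lips of experiments 2 and 3 were high and the ventral lip of experiment 1 lay within the dorsal range. The differences over 6 libraries were -1.23 for nodal.L (SE 0.575, limma adjusted p = 1.00; 0.0614 with the block) and -0.94 for nodal.S (SE 0.606, limma adjusted p = 1.00; 0.124 with the block). With 1 library left out they ran from -1.86 to -0.90 for nodal.L and from -1.62 to -0.59 for nodal.S, both lowest without ventral lip replicate 1.

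gdf3.1 was the most abundant single transcript of the set in ventral lips and in the whole embryo. It stood at 99.9, 94.5 and 79.7 RPKM in dorsal lips, against 91.6, 115 and 119 RPKM in ventral lips and 128 RPKM in the whole embryo. The dorsal and ventral values overlapped, with a difference of -0.25 (SE 0.144, limma adjusted p = 1.00; 0.291 with the block). gdf1.1 reached at most 0.415 RPKM in any library, on at most 4 reads. No difference between groups was detectable for it at this depth. Since both transcripts carry the same description and no sequence was compared, these values do not settle which of them is Vg1, and gdf3.1 may be.

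Experiments 2 and 3 alone gave another picture. In them 9 of the 10 tested members passed without the block, where 4.23% of transcripts passed, and all 10 passed with it, where 9.25% passed. Both counts hold the Xnr3 copies and nodal1.S, which passed the filter on low values through their dorsal levels. No ventral value of theirs reached 1 RPKM, so the filter favoured their calls as higher in dorsal lips. The blocked fit has 4 libraries and leaves 1 residual degree of freedom per transcript, so it leans on the spread shared over transcripts. Dorsal lips were higher by 1.52 for nodal1.L (limma adjusted p = 0.000467 with the block), 2.15 for nodal1.S (0.000171), 0.75 for nodal2.L (0.00252) and 0.56 for nodal2.S (0.0283). nodal2.S was the member that did not pass without the block. Dorsal lips were lower by these log2 differences: -1.62 for nodal.L (limma adjusted p = 0.000118), -1.39 for nodal.S (0.000591) and -0.43 for gdf3.1 (0.0165). Leaving out only ventral lip replicate 1 gave a difference of 1.45 for nodal1.L (limma adjusted p = 0.0394), which then passed.

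**Figure D2:**
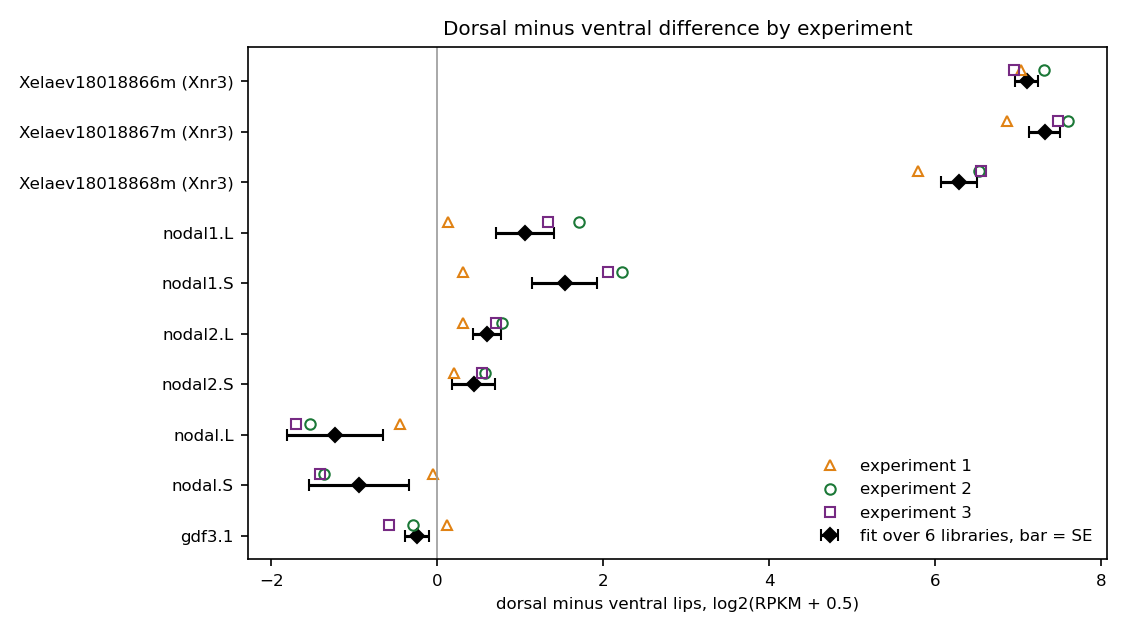
Dorsal minus ventral difference on the log2(RPKM + 0.5) scale for each member, within each experiment (open symbols, 1 library per side) and in the limma fit over 6 lip libraries (black diamonds, bars are the SE). For nodal1.S experiment 1 lies at 0.31, against 2.23 and 2.06 in experiments 2 and 3, while the Xnr3 copies lie between 5.79 and 7.60 in every experiment.

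Whether the dorsal minus ventral difference itself depended on the experiment was tested with an interaction term. Experiment 1 has 1 library per side in this fit, so its spread is assumed to be that of experiments 2 and 3. nodal1.S passed, with a difference 1.83 log2 units smaller in experiment 1 than in experiments 2 and 3 (-1.83, SE 0.221, limma adjusted p = 0.0266), where 0.648% of all transcripts passed. It passed the filter on low values through its dorsal levels, since none of its ventral values reached 1 RPKM. After quantile normalization its adjusted p was 0.0596, and over all alternatives run it lay between 0.0124 and 0.0596. nodal1.L (-1.39, adjusted p = 0.0530), nodal.S (1.34, 0.0700) and nodal.L (1.17, 0.0741) did not pass. Without any 1 of the lip libraries of experiments 2 and 3, nodal1.L had a limma adjusted p between 0.00856 and 0.0238 and passed. nodal.L passed without dorsal lip replicate 2 (1.28, limma adjusted p = 0.0289) or 3 (1.07, 0.0472), and gdf3.1 without dorsal lip replicate 2 (0.68, 0.0351). The Xnr3 copies had adjusted p of 0.304 or more in this test.

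Levels over both sides were also set against the experiment. nodal.L (-1.32, SE 0.242, limma adjusted p = 0.00235), nodal.S (-1.36, SE 0.274, 0.00365) and nodal2.S (-0.47, SE 0.143, 0.0211) were lower in experiment 1 than in experiments 2 and 3. The other 7 tested members did not pass. nodal2.L passed as higher in experiment 1 after quantile normalization (0.47, limma adjusted p = 0.0119), and Xelaev18018868m (-0.62, 0.000779) and Xelaev18018867m (-0.36, 0.0409) passed as lower with voom. Leaving out either lip of experiment 1 leaves 1 library of it, and several members then moved. Without dorsal lip replicate 1 the difference was 1.00 for nodal1.S, 1.16 for nodal1.L, 0.46 for nodal2.L, -0.36 for gdf3.1, 0.11 for Xelaev18018868m and 0.29 for Xelaev18018867m. Without ventral lip replicate 1 it was -0.83, -0.22, 0.027, 0.20, -0.64 and -0.38 in the same order. Since 73.2% of all transcripts passed in this comparison, with a median difference of -0.18 that quantile normalization moved to -0.01, the calls above do not set the members apart. nodal2.S was at -0.16 (adjusted p = 0.280) after quantile normalization.

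The make-up of Nodal transcripts differed by side. In dorsal lips, Xnr3 copies held 85.9%, 85.1% and 85.6% of summed Nodal RPKM, against 1.70%, 0.810% and 0.761% in ventral lips and 56.3% in the whole embryo. The other Nodal copies together summed to 40.1 ± 6.30 RPKM in dorsal lips and 34.6 ± 3.42 RPKM in ventral lips (SD, n = 3 each), and to 51.7 RPKM in the whole embryo. Their sums in dorsal and ventral lips overlapped, at 34.3 to 46.8 RPKM and 30.7 to 36.6 RPKM. In experiments 2 and 3 the copies that made up this sum differed by side. The RPKM ratio of nodal to nodal1 plus nodal2 was 0.117, 0.185 and 0.186 in dorsal lips, against 0.186, 1.46 and 1.39 in ventral lips and 0.181 in the whole embryo, so that the ventral lip of experiment 1 lay within the dorsal range. In ventral lips, nodal.L and nodal.S together held 15.3% of Nodal RPKM in experiment 1, and 57.5% and 56.6% in experiments 2 and 3. The nodal1 and nodal2 copies together held 82.4% there in experiment 1, and 39.3% and 40.6% in experiments 2 and 3.

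**Figure D3:**
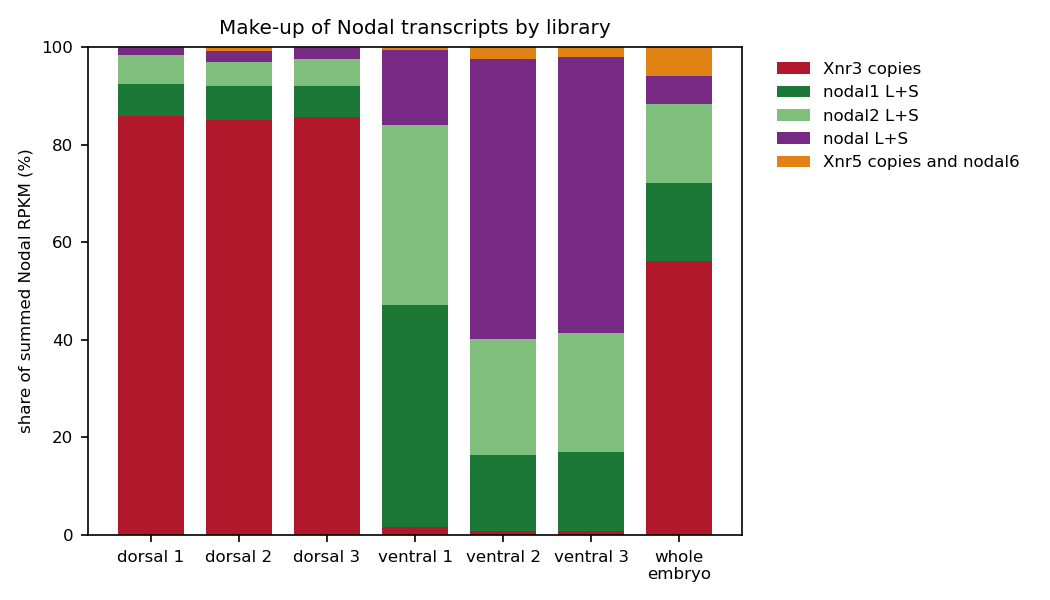
Share of summed Nodal RPKM (percent, stacked bars adding to 100) held by the Xnr3 copies, nodal1, nodal2, nodal and the Xnr5 copies with nodal6, in each of the 7 libraries. Xnr3 holds 85.1% to 85.9% in dorsal lips, and nodal (L and S) holds 57.5% and 56.6% in the ventral lips of experiments 2 and 3, against 15.3% in that of experiment 1.

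Set against the 6 other Nodal copies that passed the filter, the mean log2(RPKM + 0.5) of the 3 Xnr3 copies was higher by 4.14, 3.97 and 3.94 in dorsal lips and by 2.04 in the whole embryo. In ventral lips this contrast was -2.35, -2.78 and -2.80. It averaged 4.01 ± 0.112 in dorsal and -2.64 ± 0.259 in ventral lips (SD, n = 3 each), a gap of 6.66 log2 units. These values are a description of chosen members and carry no test. The Xnr3 mean itself spanned 5.998 to 6.41 in dorsal lips and -0.76 to -0.57 in ventral lips. The mean of the other copies spanned 1.85 to 2.44 in dorsal lips and 1.78 to 2.05 in ventral lips, ranges that overlap.

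The L copy exceeded the S copy in all 7 libraries for each of the pairs nodal, nodal1 and nodal2. The ratio of RPKM values ran from 3.39 to 5.78 for nodal (median 4.02), from 7.36 to 65.7 for nodal1 (median 16.5) and from 4.43 to 9.75 for nodal2 (median 6.05). For nodal1 the ratio was 14.8, 8.69 and 7.36 in dorsal lips, against 19.05, 65.7 and 47.0 in ventral lips, where the S copy had 37, 4 and 5 reads. Whether the side difference depends on the copy was tested over all 3301 pairs in which both copies passed the filter. Dorsal minus ventral differed between L and S by -0.48 for nodal1, -0.29 for nodal and 0.16 for nodal2, none past the limma test without or with the block (adjusted p with the block 0.137, 0.128 and 0.217). The nodal1 value hung on the pseudocount, at -1.37 with 0.1 and -0.083 with 1 added in place of 0.5. Ventral nodal1.S lay under 0.5 RPKM in experiments 2 and 3, so the size of the nodal1 difference is not settled. No pair passed without the block (0%; 105 pairs had an unadjusted p under 0.05), and 74 pairs, or 2.24%, passed with it. Reads that fit both copies of a pair could have been placed on either.

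The remaining Nodal members were low in lips, and their summed reads were higher in the whole embryo. The Xnr5 copies and nodal6, which encodes Xnr6, are early Nodal genes that the maternal factor VegT switches on in vegetal cells of the blastula. The 9 Xnr5 copies together held 18, 42 and 11 reads in dorsal lips and 9, 28 and 19 reads in ventral lips, against 207 reads in the whole embryo. nodal6 (L and S) held 7, 67 and 12 reads in dorsal lips and 0, 5 and 5 reads in ventral lips, against 140 reads in the whole embryo. The dorsal lip of experiment 2 was the highest lip library for both. One Xnr5 copy, Xetrov90009422m.S, was listed at 0 in all 7 libraries. No read was counted for it, and a low level with an expected count of up to about 3 reads in a library could also give 0. Single copies did not all follow the sum: Xelaev18018802m and Xelaev18018803m had 0 reads in the whole embryo and 1 or 2 in a ventral lip, and Xetrov90009422m.L had 3 reads in the dorsal lip of experiment 2, against 2 in the whole embryo. None of the Xnr5 and nodal6 copies reached a mean of 1 RPKM over the lips, so they were not tested.

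Within experiment 1 the lips can be set against the whole embryo, with 1 library each and no replicate. The Xnr3 copies together were 3.22 times as high in the dorsal lip as in the whole embryo (exact 95% counting interval 3.09 to 3.35), and 0.00824 times as high in the ventral lip (0.00527 to 0.0123). Of all transcripts tested, 0.878% were at least 2 times above the whole embryo in that dorsal lip and 1.01% at least 2 times below it in that ventral lip. The Xnr5 copies were at 0.0968 of the whole embryo level in the dorsal lip (0.0562 to 0.157) and at 0.0480 in the ventral lip (0.0217 to 0.0930). nodal6 was at 0.0556 in the dorsal lip (0.0220 to 0.118) and at 0 in the ventral lip, with an upper limit of 0.0295. The remaining tested members had ratios between 0.503 and 0.933 in both lips. Of all transcripts tested, 0.375% were at least 2 times below the whole embryo in both lips of experiment 1. The Xnr5 and nodal6 copies are not among those, since the filter takes out transcripts low in lips. Of transcripts with at least 1 RPKM in the whole embryo, whatever their level in lips, 0.816% were that far below it in both lips.

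Markers of vegetal endoderm and germ plasm moved with this in part. Of the 15 transcripts of that list with at least 1 RPKM in the whole embryo, 8 were at least 2 times below it in both lips of experiment 1, against 131 of 16045 transcripts, or 0.816%, over the whole table. nanos1.L, a germ plasm RNA, stood at 0.511 RPKM in the dorsal lip and 1.23 RPKM in the ventral lip of experiment 1, against 26.1 RPKM in the whole embryo. The other 7 did not meet this limit, and a2m.S stood at 45.1 RPKM in the dorsal lip and 9.53 RPKM in the ventral lip of experiment 1, against 26.8 RPKM in the whole embryo. Both were picked as examples after their values were seen. The list summed to between 147 and 212 RPKM in dorsal lips and 154 and 179 RPKM in ventral lips, against 430.2 RPKM in the whole embryo, and 4 of its 27 transcripts were at 0 in all libraries. The part of vegetal tissue in the Xnr5 and nodal6 values was not tested.

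**Figure D4:**
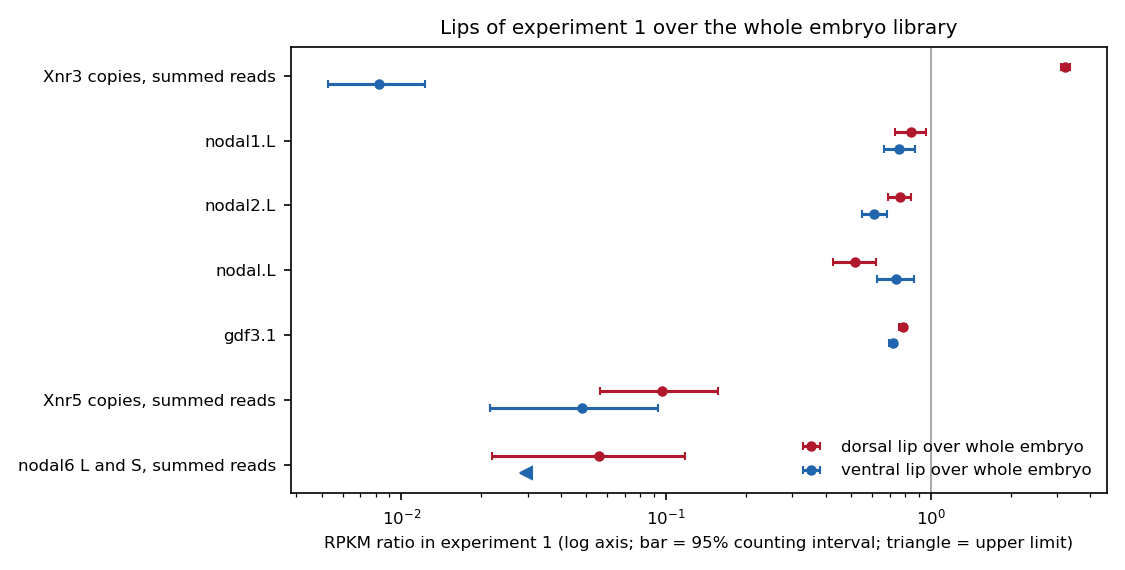
Ratio of each lip of experiment 1 to the whole embryo library (log axis), from reads scaled by mapped reads, for Nodal groups and gdf3.1; bars are exact 95% counting intervals, the triangle is the upper limit for nodal6 in the ventral lip, and the line marks equal levels. The Xnr3 copies lie at 3.22 in the dorsal lip and 0.00824 in the ventral lip, and the Xnr5 copies lie at 0.0968 and 0.0480.

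In the authors' deposited table of dorsal transcripts, which rests on experiments 2 and 3, the dorsal over ventral ratios were 1397 for Xelaev18018867m, 810.4 for Xelaev18018868m, 611 for Xelaev18018866m, 20.7 for nodal1.S and 3.05 for nodal1.L. In the authors' deposited ventral table, the ventral over dorsal ratios were 3.27 for nodal.L and 3.203 for nodal.S. The authors also deposited correlation coefficients to chordin, a BMP antagonist made by the organizer, over 26 samples, not all of which are analysed here. In the authors' deposited table these were 0.806, 0.780 and 0.738 for the Xnr3 copies, 0.712 for nodal1.S, 0.49998 for nodal1.L, 0.361 for nodal2.L, 0.263 for gdf3.1 and 0.0629 for nodal.L. These tables share libraries with the values above and are no separate evidence.

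Transcripts with the profile closest to a member over the 7 libraries were found by the root mean square difference of centred log2 profiles. For Xelaev18018867m, the Xnr3 copy with the highest mean RPKM over the lips, they were Xelaev18018866m (0.283), the organizer homeobox gene gsc.L (0.380), the chordin transcripts Xelaev18027421m (0.398) and Xelaev18029538m (0.417), and Xelaev18018868m (0.526). gsc.L stood at 187, 200.2 and 221 RPKM in dorsal lips, against 2.41, 0.615 and 0.687 RPKM in ventral lips. For nodal1.L they included Xelaev18010507m, whose human match is the T-box factor TBX6 (0.133), tmcc1.L (0.156) and pou3f1.L (0.186). For gdf3.1 they were alkbh2.L (0.0710), pop4.L, c19orf10.L, xrcc6.L and slc15a4.L. This likeness is a description over 7 libraries that share their experiment and depth.

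Genes that make, carry or limit the Nodal signal were taken from lists of the pathway. Of 15 transcripts of receptors and co-receptors, 10 were tested and none passed between dorsal and ventral lips without or with the block, and their median difference was -0.07, beside -0.05 over all transcripts. In experiments 2 and 3 alone with the block 1 of the 10 passed, higher in dorsal lips, where 9.25% of all transcripts passed in either direction. The activin type I receptor transcript acvr1b.L stood at 10.3, 11.1 and 11.3 RPKM in dorsal lips, against 10.3, 8.73 and 8.27 RPKM in ventral lips. Its difference was 0.26 (limma adjusted p = 0.170 with the block). The list also holds TGF-beta receptors, which are not the activin receptors that Nodal binds. Of these, tgfbr1.S stood at 20.2, 21.3 and 20.2 RPKM in dorsal lips, against 21.8, 22.04 and 23.3 RPKM in ventral lips. Xelaev18006975m, whose human match is the EGF-CFC co-receptor CFC1, stayed at or below 0.362 RPKM in every library. Only 7 of the 12 symbols of this list were found, and no other EGF-CFC transcript was among them. The level of EGF-CFC co-receptors as a whole is therefore not known from this list. Of 8 tested transcripts of ligand-processing proteases, none passed without the block and furin.L passed with it, lower in dorsal lips (-0.32, limma adjusted p = 0.0298 with the block). Over all transcripts 0.327% passed without the block and 4.71% with it, 2.34% as lower in dorsal lips.

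Of 9 transcripts on the list of Nodal antagonists 8 were tested, with a median difference of 2.04 beside -0.05 over all transcripts. The list also holds Follistatin, an activin antagonist, whose transcripts fst.S and fst.L enter this median and the counts below. None passed without the block, where 0.327% of all transcripts passed. With it 4 passed, all higher in dorsal lips, where 2.37% of all transcripts did so. cer1.S, which encodes Cerberus, a binder of Nodal, BMP and Wnt ligands, stood at 184, 69.7 and 72.7 RPKM in dorsal lips, against 6.68, 0.0624 and 0.168 RPKM in ventral lips (6.14, SE 1.052, limma adjusted p = 0.179; 0.00435 with the block). cer1.L (4.45, 4.39e-05 with the block), fst.S (2.81, 0.00779) and fst.L (2.68, 0.00607), the last 2 coding for the activin antagonist Follistatin, completed the 4. No ventral value of fst.S and fst.L reached 1 RPKM, so both passed the filter on low values through their dorsal levels. In ventral lips cer1.L reached 1 RPKM in experiment 1 only (1.81 RPKM). lefty.S and lefty.L, which encode feedback inhibitors that Nodal itself induces, did not pass over the 6 lips, nor did nomo3.L (-0.09) and nomo3.S (0.03). In experiments 2 and 3 alone with the block, 6 of the 8 passed, all higher in dorsal lips, where 9.25% of all transcripts passed in either direction. lefty.S stood at 22.8, 34.7 and 34.4 RPKM in dorsal lips, against 21.6, 6.94 and 9.001 RPKM in ventral lips.

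The side difference of both lefty copies depended on the experiment in the same direction as that of nodal1.S. The interaction was -1.98 for lefty.S (limma adjusted p = 0.0195), -1.36 for lefty.L (0.0398) and -2.19 for cer1.S (0.0150), while none of the other 5 tested antagonists passed. With no filter on low values none of these 3 passed (0.105, 0.181 and 0.0559 in the same order), and after quantile normalization lefty.L did not (0.0596). These 3 were named after their values were seen. Of 54 tested transcripts of mesendoderm genes known to respond to Nodal, 14 passed this interaction test. All 14 had a lower dorsal minus ventral difference in experiment 1. The median interaction of the 54 was -0.94, beside 0.00436 over all transcripts, of which 0.551% passed in that direction. In that direction 4 of 16 organizer and 4 of 16 ventral center transcripts passed as well, so this direction was not particular to the mesendoderm list. The median dorsal minus ventral difference was 5.83 for the organizer list and -2.67 for the ventral center list. A lower value is a smaller side contrast where the difference is positive and a larger one where it is negative. The mesendoderm and organizer lists share some transcripts. In dorsal lips, organizer markers summed to 1874 RPKM in experiment 1, and to 1450 and 1579 RPKM in experiments 2 and 3. In ventral lips, organizer markers summed to 74.9 RPKM in experiment 1, and to 17.5 and 22.8 RPKM in experiments 2 and 3. Ventral center markers were also highest there in experiment 1, at 1427 RPKM, against 757 and 851 RPKM in experiments 2 and 3. Superficial epithelium markers summed there to 1570 RPKM in experiment 1, and to 1174 and 1263 RPKM in experiments 2 and 3. Experiments 2 and 3 also shared a sequencing lane. Neither the part of tissue composition nor that of the lane in these differences was tested. Between dorsal and ventral lips with the block, all 16 organizer transcripts were higher in dorsal lips, and 12 of 16 ventral center transcripts were lower. Of 19 tested epithelium transcripts 1 was higher and 12 were lower in dorsal lips, and of 14 tested vegetal transcripts 5 were higher and 1 was lower. Over all transcripts 2.37% were higher and 2.34% lower with the block.

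In the dorsal against ventral comparison, 8 of those 54 mesendoderm transcripts passed as higher and 1 as lower in dorsal lips without the block, and 24 and 3 with it. Over all transcripts the shares were 0.248% and 0.0787% without the block, and 2.37% and 2.34% with it. The highest by rule were 3 chordin transcripts (8.40 for Xelaev18027420m), gsc.L (7.01, limma adjusted p = 0.00214, and 0.000873 with the block) and cer1.S. No ventral value of the 3 chordin transcripts reached 1 RPKM, so they passed the filter on low values through their dorsal levels. Of 34 tested Smad effectors and partners, none passed without the block. With it Xelaev18003094m, whose human match is the corepressor TGIF2, was higher in dorsal lips (0.41, limma adjusted p = 0.0457), while foxh1.L, the DNA-binding partner of Smad2 in Nodal signalling (-0.56, 0.00749), and usp9x.S (-0.43, 0.0434) were lower. The difference of foxh1.L was -0.058 without dorsal lip replicate 1 and -1.05 without ventral lip replicate 1, and that of usp9x.S was 0.18 and -0.997.

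Among maternal and zygotic activators, 10 of 17 transcripts were tested and none passed without the block, where 0.327% of all transcripts passed. With the block 2 passed, both higher in dorsal lips, where 2.37% of all transcripts did so. tcf7l1.L, a Wnt-pathway repressor of the Tcf family, stood at 54.4, 36.4 and 42.9 RPKM in dorsal lips, against 24.7, 18.4 and 20.3 RPKM in ventral lips (1.05, SE 0.188, limma adjusted p = 0.191; 0.00102 with the block). otx1.S was higher in dorsal lips too (1.14, limma adjusted p = 0.255; 0.0225 with the block). It passed the filter on low values through its dorsal levels, since none of its ventral values reached 1 RPKM. The Wnt-induced homeobox gene Siamois, which shares with Xnr3 its early dorsal activation, was under the filter, with Xelaev18000882m at 3.59, 0.943 and 0.9499 RPKM in dorsal lips and at 0 in all 3 ventral lips.

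Among 31 transcripts of other TGF-beta superfamily ligands, 11 were tested. Of all transcripts, 0.248% passed as higher and 0.0787% as lower in dorsal lips without the block. Without the block admp.S and admp.L, which encode a BMP-like ligand of the organizer, were higher in dorsal lips (6.55 and 5.36, limma adjusted p = 0.00347 and 0.00307), and admp2.L was lower (-2.68, limma adjusted p = 0.00601). Without ventral lip replicate 2 or 3, admp2.L did not pass (0.0669 and 0.0758). No ventral value of admp.L reached 1 RPKM, so it passed the filter on low values through its dorsal levels. With the block the limma adjusted p was 1.76e-05 for admp.S, 1.89e-05 for admp.L and 0.00194 for admp2.L. With the block, 2 were higher and 5 lower in dorsal lips, against 2.37% and 2.34% of all transcripts, among them the ventral BMP ligand bmp4.S (-1.09, limma adjusted p = 0.00448 with the block) and bmp4.L (-0.74, 0.00925). Activin subunit transcripts inhbb.L and inhbb.S reached at most 0.1998 RPKM in any library.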

How the data were processed

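Libraries came from polyadenylated RNA (TruSeq kit, single-end reads), per the labels' protocols. The authors deposited RPKM values per transcript for 7 libraries. Per the file headers, JGI 9.1 gene models were the target, human matches came from protein BLAST, and experiments 2 and 3 shared a lane. TopHat2 2.09 and DESeq are named in the submitters' processing notes with no role. How reads were counted, by strand or when shared between copies, is not given in the sources used here. Adjusted p-values and the ratio of lips, both deposited by the authors, rest on experiments 2 and 3, per the file headers, and the correlation score deposited by the authors is of an unstated kind.

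Whole reads were recovered from the RPKM steps, as the smallest whole numbers that fit within 0.001 reads, for 35325 of 35326 transcripts above 0. Tests used limma 3.58.1 in R 4.3.3 (linear fits with trended empirical Bayes moderation, two-sided) on log2(RPKM + 0.5), for transcripts averaging 1 RPKM or more across the 6 lips, with Benjamini-Hochberg adjustment over all 16514 and a threshold of 0.05. Homeolog pairs were fitted on the L minus S difference with moderation without a trend, and adjusted over 3301 pairs. Calls were also checked on simulated data with a known set of changes. The simulated data held no difference between experiments across most transcripts, so they do not show recovery under one. The design allowed for counts, and the fit for normalised values was used. Same-numbered dorsal and ventral libraries deviated together, with correlations of 0.926, 0.881 and 0.819, and the experiment numbers were taken to pair the libraries. Dorsal lip 2 with ventral lip 3 (0.839) and dorsal lip 3 with ventral lip 2 (0.748) correlated about as strongly. These correlations set experiment 1 apart but do not tell how the libraries of experiments 2 and 3 pair, so the block there rests on the numbers alone. Alternatives were other pseudocounts, no filter, quantile normalization, voom on recovered reads, the block, experiments 2 and 3 only, and each library left out. The voom fit with the block and the left-out libraries of the interaction and of the Xnr3 contrast were chosen after seeing the data.

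Every member that passed the filter is named. From each pathway list up to 5 transcripts past the test without or with the block are named, by largest difference. Members and lists were chosen with earlier results of these data known. Some of the transcripts closest in profile to nodal1.L are not reported here.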

Additional observations from a re-analysis of the deposited data

Results flagged for a closer look

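The dorsal minus ventral difference of nodal1.S was smaller in experiment 1 than in experiments 2 and 3, by a test of that difference (-1.83, limma adjusted p = 0.0266). Among the Nodal antagonists the same test gave -1.98 for lefty.S (limma adjusted p = 0.0195), -1.36 for lefty.L (0.0398) and -2.19 for cer1.S (0.0150). The calls of these 3 were lost with no filter on low values, and those of nodal1.S and lefty.L after quantile normalization. For all 4 the ventral lip of experiment 1 was higher than those of experiments 2 and 3. The dorsal lip of experiment 1 was lower than those of experiments 2 and 3 for nodal1.S, lefty.S and lefty.L. For cer1.S it was higher. The differences therefore do not lie in the ventral lips alone. Experiment 1 has 1 library per side, so these values rest on a single dorsal and ventral pair.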

How the results depend on the processing

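Between dorsal and ventral lips 54 transcripts passed, 777 with the replicate block, 698 in experiments 2 and 3 only, 1528 there with the block, 1636 with voom and the block, and 21 to 139 with 1 library left out, the highest without ventral lip replicate 1 and the lowest without ventral lip replicate 3. The Xnr3 copies passed in all 45 alternative fits of theirs. The 6 other Nodal copies and gdf3.1 kept their direction in all of theirs, and the calls gained are those given above plus nodal.L (0.0144), nodal.S (0.0375) and nodal2.L (0.0298) with voom and the block. For the interaction 107 transcripts passed, 966 with no filter, 48 after quantile normalization, 201 with voom and 146 to 209 with 1 library left out. With no filter, lefty.S (0.105), lefty.L (0.181) and cer1.S (0.0559) did not pass, nor did lefty.L after quantile normalization (0.0596). For the homeolog pairs 0 passed, 1 with pseudocount 0.1, 74 with the block and 0 to 14 with 1 library left out. The Xnr3 contrast of 6.66 was 8.03 with pseudocount 0.1, 5.88 with pseudocount 1, 7.91 from summed RPKM and 6.58 to 6.81 with 1 library left out. The causes were not tested.

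Directions turned for values near 0 or with experiment 1 on 1 side only. Experiment 1 minus experiments 2 and 3 was 0.21 for Xelaev18018867m with pseudocount 0.1, and -0.019 with pseudocount 1 and -0.29 with voom for nodal1.S. With 1 library left out it ran from -0.64 to 0.11 for Xelaev18018868m, -0.38 to 0.29 for Xelaev18018867m, -0.83 to 1.00 for nodal1.S, -0.22 to 1.16 for nodal1.L and -0.36 to 0.20 for gdf3.1. The L minus S difference of nodal2 ran from -0.068 to 0.41, the interaction of Xelaev18018866m from -0.22 to 0.018, and the side difference of usp9x.S from -0.997 to 0.18. At this depth, values under about 10 reads limit nodal1.S, the ventral Xnr3 values and the copies under the filter.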
